A study of Mus musculus with 4 samples.

Results

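Tetraspanins are small proteins that cross the membrane with 4 segments, gather integrins, proteases and other surface proteins into microdomains, and act in adhesion, receptor trafficking and vesicle release. In neurons, members of the family are known for roles in neurite growth and in the trafficking of synaptic receptors. Transcripts of this family bound by IMP2 (gene Igf2bp2, an RNA-binding protein that regulates the transport, stability and translation of mRNA) were taken from the list of IMP2 clusters as every line whose gene symbol starts with Tspan and a digit. The rule gave 5 genes, Tspan5, Tspan6, Tspan7, Tspan18 and Tspan31, with 6 distinct clusters out of 1828 clusters in 761 genes. A cluster is a stretch of overlapping tags, the short RNA fragments recovered with the protein.

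The tags came from HITS-CLIP, in which ultraviolet light joins a protein to the RNA it touches before immunoprecipitation and sequencing, applied to whole embryonic brain at E14 from the Swiss Webster mouse strain. Of the 4 libraries, 2 carry the letter R in the title and 2 the letter M. The labels do not explain these letters; antibodies to IMP2 raised in mouse and in rabbit are named in the protocol. One cluster list stands for all 4 libraries, so the heights below have no replicate error and no test between genes was possible. Whether a height is a raw count of tags is unknown. Of 6 markers of newborn neurons, 5 were in the list (Dcx, Stmn2, Map2, Gap43 and Mapt, but not Tubb3). Also listed were 1 of 6 markers of neural progenitors (Vim) and 1 of 6 of endothelium and pericytes (Rgs5). The list held 1 of 4 markers of choroid plexus (Ttr) and 0 of 5 of microglia. Of 5 erythroid markers, 2 were listed (Hbb-y and Hba-a1), and the cluster of Hba-a1 was shared with Hba-a2. Since 3.47% of all protein-coding genes were listed, 0 or 1 of so few markers cannot be told from that background. In whole brain, fewer cells of a type and less RNA per cell cannot be told apart, and transcript abundance was not analysed here.

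A minority of the family was listed. Of 31 tetraspanin genes, 5 carried a cluster, which is 16.1% (exact Clopper-Pearson 95% interval 5.45 to 33.7), beside 3.47% of all 21900 protein-coding genes. The 5 are in the list by the rule itself, so nothing is read from this difference. The 11 family members that carry other names (Cd9, Cd37, Cd53, Cd63, Cd81, Cd82, Cd151, Upk1a, Upk1b, Prph2 and Rom1) had no cluster. Among them are Cd9, Cd81 and Cd63, which are widely used as marker proteins of extracellular vesicles. With an exact 95% interval of 0 to 28.5%, 0 of 11 cannot be told from the 3.47% of all protein-coding genes. Of the 20 genes named Tspan, 15 were absent: Tspan1, Tspan2, Tspan3, Tspan4, Tspan8, Tspan9, Tspan10, Tspan11, Tspan12, Tspan13, Tspan14, Tspan15, Tspan17, Tspan32 and Tspan33. Absence means only that no cluster reached the list, whose lowest height was 18 and lowest fold 2.

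All 6 tetraspanin clusters lay wholly within the 3' UTR. Over the whole list, 94.1% of clusters were in a 3' UTR by their midpoint. None of the 6 was shared with another gene, and each of the 5 genes had 1 RefSeq transcript in the list, as did 581 of the 761 listed genes (76.3%). All positions are on mm9. Tspan18 carried 2 clusters and the other 4 genes 1 each. A single cluster was the most frequent case in the list, with 419 genes (55.1%), and 141 genes had 2.

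**Figure D1:**
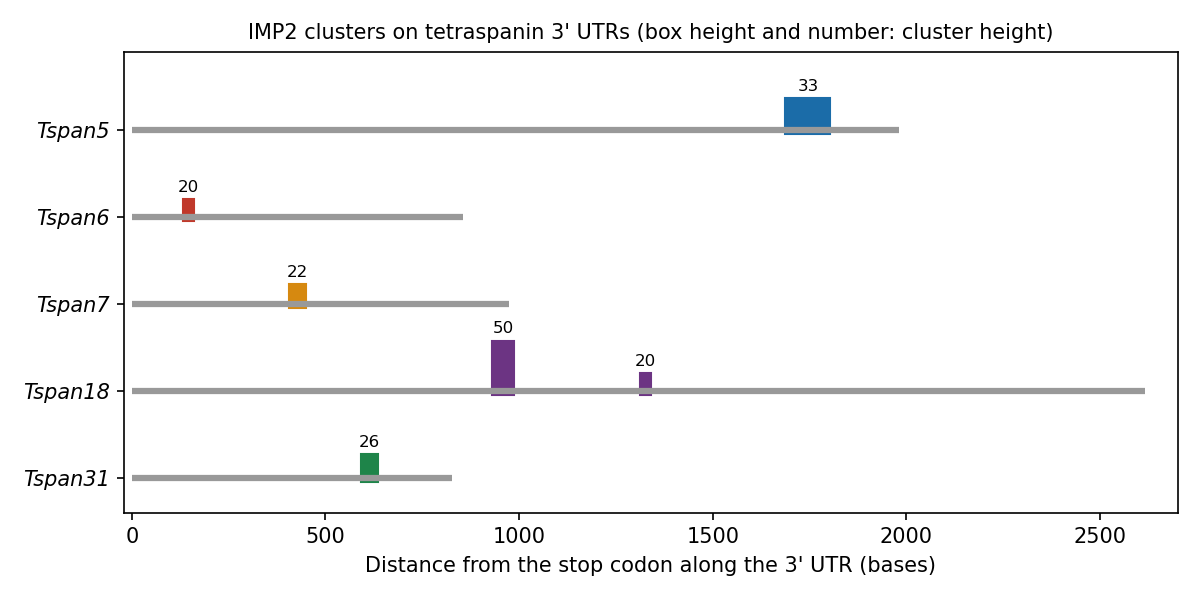
Position of the 6 clusters along the 3' UTR of the 5 tetraspanin transcripts, in bases counted from the stop codon up to the annotated 3' end (grey line). Box width is the cluster width to scale, and box height and the number above it give the cluster height. The clusters of Tspan5 and Tspan31 lie towards the 3' end, that of Tspan6 near the stop codon, and the others in the middle part.

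Tspan18 stood at the top of the list by fold. The protein is known from human endothelial cells as a partner of the calcium channel Orai1, and from chick embryos as a regulator of cadherin-6B in the cranial neural crest. Its taller cluster (NM_183180, chromosome 2, 93043544 to 93043601, minus strand) was 58 bases wide and had a height of 50, above 88.9% of all clusters. The authors' fold of this cluster, the height over a level that the file does not define, was 25.48, the highest of the 1828 clusters. Only 4 clusters in all reached a fold of 20 or more. The next genes by their highest fold were Rgs5, a marker of pericytes, at 23.07 and Usf3 at 21.99, both with a height of 47.

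Height alone did not set this cluster apart. There were 13 clusters of height 50, with a median fold of 7.89 and a lowest fold of 5.35, and the highest fold among them after that of Tspan18 was 9.88. Their median width was 91 bases. Ranked by the highest cluster of a gene, Tspan18 shared place 98 of 761 with 4 other genes, and its neighbours in that order were the glucose transporter gene Slc2a1 and the Wnt transcription factor gene Tcf7l2, both at 50, and Enc1 and Rb1, both at 49. Dividing height by fold gives the level that the fold implies. For the taller Tspan18 cluster it was 1.96, against a median of 5.96 over all clusters (interquartile range 4.81 to 7.31), so that it ranked 1816 of 1828 from the top.

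The second Tspan18 cluster (chromosome 2, 93043191 to 93043218, minus strand) was much lower. It had a height of 20, above 5.09% of clusters, a width of 28 bases and a fold of 5.99, close to the list's median fold of 5.4. It lay 325 bases downstream of the taller one in the transcript, and the gap ranked 68 among the 141 genes with 2 clusters (median 302 bases). The implied level was 3.34 here, rank 1696 of 1828 from the top, and 1.96 at the taller cluster. Both levels lay under the first quartile of the list, 4.81, though they were not the same. These levels differed 1.7 times, rank 11 among the 141 genes, whose median ratio was 1.15. The folds of the 2 Tspan18 clusters differed 4.25 times, the most among the 141 genes, whose median ratio was 1.28. The taller cluster held the highest fold of the whole list, so this rank adds little to that value. The heights of the 2 clusters differed 2.50 times, rank 5 among the 141 genes (median 1.27).

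**Figure D2:**
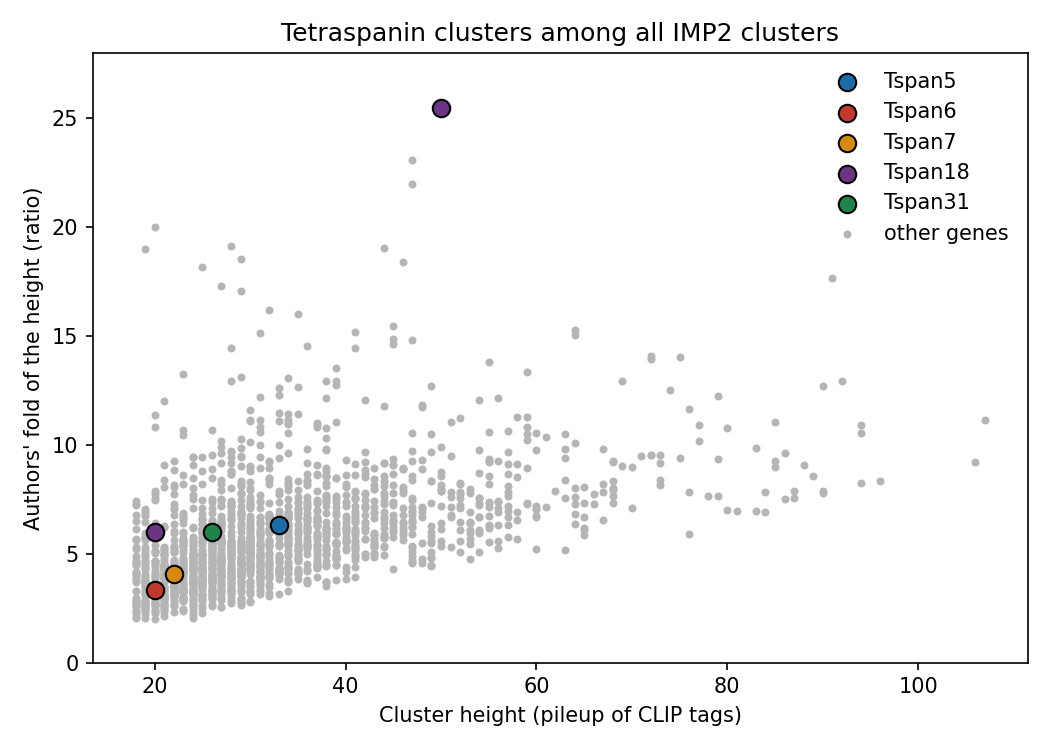
Authors' fold of the height (y axis, ratio) against cluster height (x axis, pileup of tags) for the 6 tetraspanin clusters (coloured by gene) and all other clusters (grey). The taller Tspan18 cluster, at height 50 and fold 25.48, lies above every other point, while the other 5 tetraspanin clusters lie between folds of 3.33 and 6.32.

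Tspan5 had the second tallest cluster of the family. Tspan5 belongs to the TspanC8 subgroup, whose members guide the protease ADAM10 out of the endoplasmic reticulum and so bear on Notch processing. Its cluster (NM_019571, chromosome 3, 138567096 to 138567212, plus strand) had a height of 33 and a fold of 6.32, above 59.6% and 65.3% of all clusters. It was the widest of the 6 at 117 bases, wider than 89.8% of clusters. Of the other TspanC8 genes (Tspan10, Tspan14, Tspan15, Tspan17 and Tspan33), 0 of 5 were listed, which cannot be told from the 3.47% of all protein-coding genes.

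Tspan31 followed with a height of 26. The gene was first described as a sequence amplified in human sarcomas, and it lies beside the cyclin-dependent kinase gene Cdk4, which is on the opposite strand and was not listed. The Tspan31 cluster (NM_025982, chromosome 10, 126504537 to 126504580, minus strand) was 44 bases wide with a fold of 5.98. By height it exceeded 29.6% of clusters and by fold 59.7%.

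The 2 X-linked members had low clusters. Tspan7, in which mutations cause intellectual disability in humans and whose protein binds PICK1 and takes part in AMPA receptor trafficking, had a cluster of height 22 and fold 4.05 (NM_019634, chromosome X, 10173161 to 10173204, plus strand), 44 bases wide. Tspan6, known from human cells as a negative regulator of antiviral RIG-I-like receptor signalling, had a height of 20 and a fold of 3.33 (NM_019656, chromosome X, 130426302 to 130426330, minus strand), over 29 bases. Tspan7 exceeded 12.8% of clusters by height and Tspan6 5.09%, and the folds of both lay under the first quartile of the list, 4.18. With no replicate error, heights of 20, 22 and 26 cannot be ordered with confidence. Clusters of height 20 or less made up 8.64% of the list. Of the 761 listed genes, 32 (4.20%) were on the X chromosome. The second Tspan18 cluster, on chromosome 2, also had a height of 20. Gpm6b, on X, had 9 clusters with heights of 19 to 72. Whether height differed between X and the other chromosomes was not tested.

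Of the 6 tetraspanin clusters, the taller one of Tspan18 and that of Tspan5 exceeded the list's median height, so that 2 of the 31 family genes had such a cluster, beside 1.87% of all protein-coding genes. A fold above the median of 5.4 was reached by 3 of the 31, Tspan5, Tspan18 and Tspan31, beside 2.34%. As the rule took the members from the list, nothing is read from these differences either. The 6 clusters had a median height of 24 against 30 over all clusters, and a median width of 44 against 53 bases. The median fold was 5.99 against 5.4. Taking each gene at its highest cluster, the 5 genes had a median height of 26 against 31 over all listed genes and a median fold of 5.98 against 6.46. From the highest to the lowest gene, height spanned 2.50 times and fold 7.65 times, and without Tspan18 the median fold of the remaining 4 clusters was 5.02.

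The 3' UTRs of the 5 genes differed in length. Tspan18 (2615 bases) and Tspan5 (1980 bases) had the longer ones, and Tspan7 (975 bases), Tspan6 (854 bases) and Tspan31 (826 bases) had the shorter ones, against a median of 1998 bases over the 729 listed genes with a 3' UTR interval (interquartile range 1137 to 3378). The longer pair carried clusters of 50 and 20 (Tspan18) and 33 (Tspan5), and the 3 shorter ones clusters of 20 to 26. Clusters covered 5.91% of the 3' UTR in Tspan5, 5.33% in Tspan31, 4.51% in Tspan7, 3.40% in Tspan6 and 3.29% in Tspan18, against a median of 4.70% over those 729 genes. The number of clusters per kb ran between 0.505 in Tspan5 and 1.21 in Tspan31 (median of the 729 genes 0.861). The genes differed more in their transcribed span, which was 162 kb for Tspan5, 133 kb for Tspan18, 111 kb for Tspan7, 7.36 kb for Tspan6 and 2.97 kb for Tspan31, against a median of 40.3 kb over all listed genes.

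**Figure D3:**
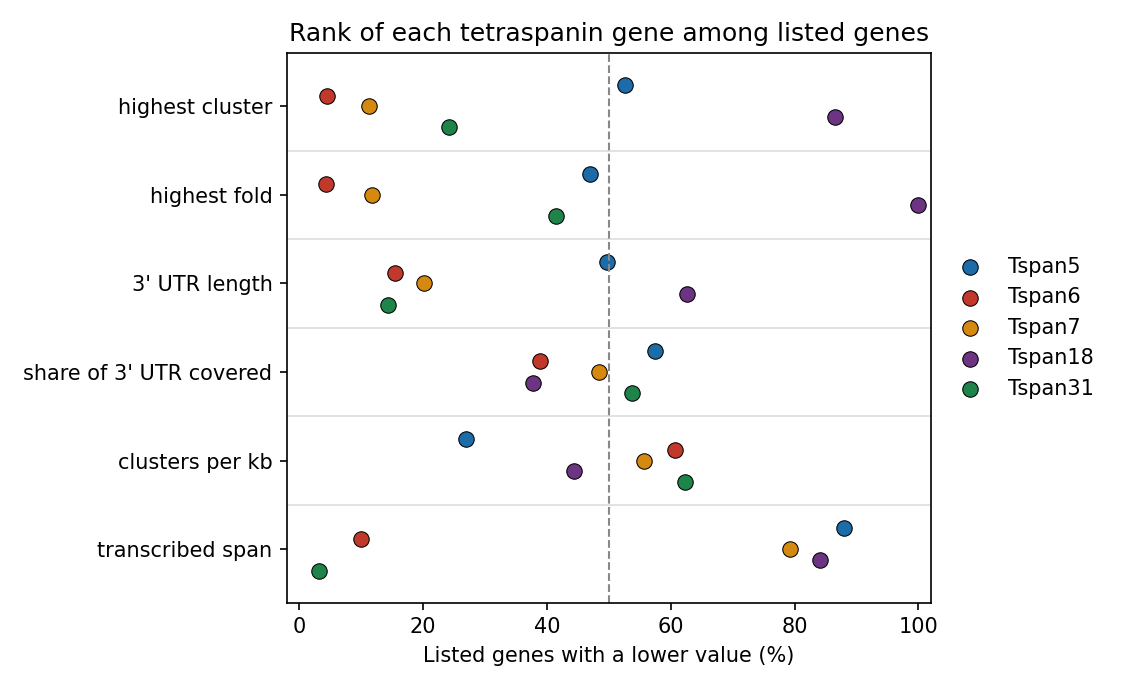
Share of listed genes with a lower value (x axis, percent) for each of the 5 tetraspanin genes in 6 measures (rows), with the dashed line at 50%. Tspan18 leads the family in height and fold, Tspan6 is lowest in both, and the 5 genes lie between 37.7% and 57.5% for the share of the 3' UTR covered.

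No common place along the 3' UTR was seen. Counted as a percentage of the 3' UTR starting at the stop codon, the midpoint lay at 17.2% in Tspan6, 36.7% and 50.7% in Tspan18, 43.8% in Tspan7, 74.2% in Tspan31 and 88.2% in Tspan5. The median of the 6 clusters was 47.3%, against 48.2% over the 1721 clusters in 3' UTRs. In bases, the cluster of Tspan6 began 132 bases after the stop codon. Those of Tspan5 and Tspan31 ended 176 and 191 bases before the annotated 3' end, so that 2 of 6 clusters lay within 300 bases of it, as did 17.0% of all 3' UTR clusters. Trp53i11, the neighbour of Tspan18 on the opposite strand in the RefSeq table of GRCm38, carried a cluster of its own (height 42, fold 7.13, chromosome 2, 93041407 to 93041459), which ended 1731 bases short of the nearest Tspan18 cluster. Cd82, the tetraspanin gene on the other side of Tspan18, was not listed.

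Transcripts of some genes named from general knowledge as partners of tetraspanins carried IMP2 clusters too. Of 24 such partner genes, 5 were listed (20.8%, exact 95% interval 7.13 to 42.2, beside 3.47% of all protein-coding genes); the list was drawn up with results for part of these genes known, so it supports nothing by itself. Adam10, the protease that Tspan5 escorts, had 3 clusters of heights 51, 26 and 29 with folds of 11.06, 6.86 and 5.40. Itgb1, the beta-1 integrin that many tetraspanins bind, had clusters of 20 and 41 with folds of 6.15 and 14.45. The adhesion and Wnt protein gene Ctnnb1 had 6 clusters of heights 22 to 86, the amyloid precursor gene App 3 of heights 39 to 71, and Sdcbp, which encodes the vesicle scaffold syntenin, 1 of height 27. The partners of Tspan7 and Tspan18 named above, Pick1 and Orai1, were not listed, nor was the AMPA receptor gene Gria2.

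The M6 proteolipids, a different family of neuronal membrane proteins with 4 crossings, had more clusters per gene. Gpm6a and Gpm6b carried 9 clusters each, with heights of 19 to 64 in Gpm6a and 19 to 72 in Gpm6b. No tetraspanin gene had more than 2. Of the 761 listed genes, 419 had 1 cluster, 141 had 2 and only 28 had 9 or more. Clusters covered 43.4% of the 3' UTR of Gpm6a and 22.0% of that of Gpm6b, against 3.29% to 5.91% in the tetraspanins. The highest fold of the proteolipids was 9.55 in Gpm6b, below the 25.48 of Tspan18 and above the 3.33 to 6.32 of the other tetraspanin genes. This difference in clusters per gene was not tested, and the proteolipids were chosen with their values known.

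**Figure D4:**
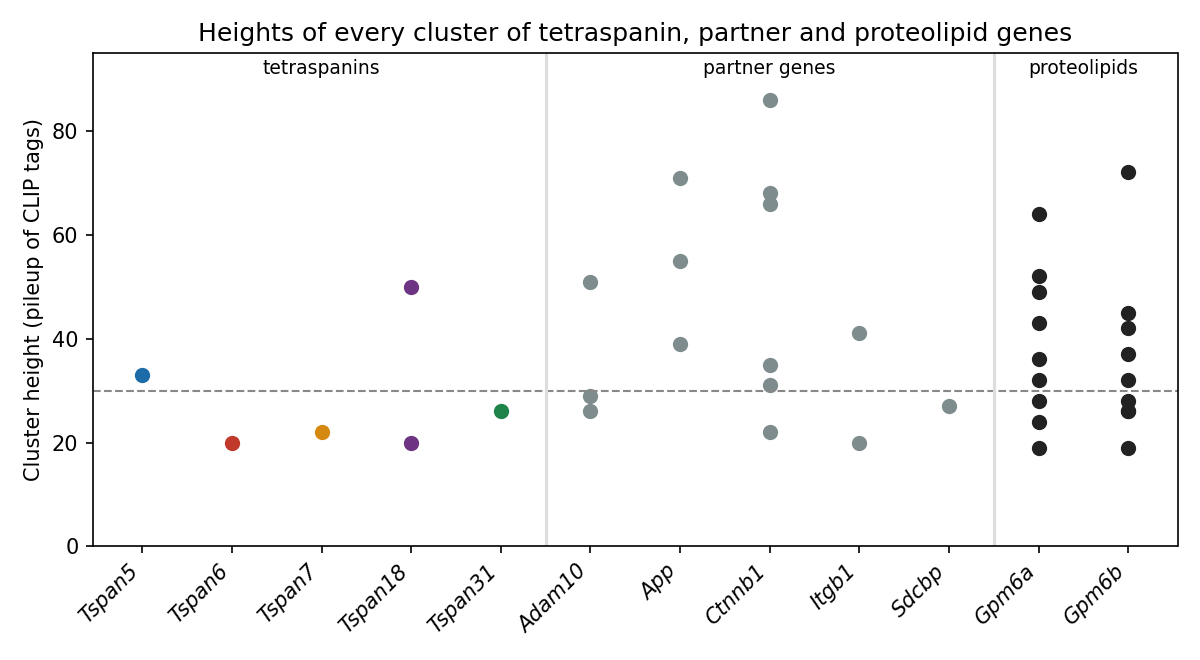
Height of every cluster (y axis, pileup of tags, 1 point each) for the 5 tetraspanin genes (coloured), the 5 listed partner genes (grey) and the 2 proteolipid genes (black), with the dashed line at the median height of all clusters, 30. Of the 6 tetraspanin clusters, the taller one of Tspan18 and that of Tspan5 lie above the line.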

How the data were processed

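The authors deposited a single list of clusters for the 4 libraries. Cluster height is a deposited signal (pileup) value, read as the depth of tags at the summit, and the fold of the height is a ratio whose lower level the file headers do not define. Per the submitters' processing notes, Bowtie and FastQC (no version given) and mm9 were used; the cluster caller, its cutoffs and any pooling of libraries were not given in the sources used here. From the 2865 lines, distinct clusters were counted by chromosome, start, end and strand, and starts were made 1-based. Transcripts were matched to RefSeq symbols (GRCm38.p6 table, no coordinates used for the match) by accession (1088) or name (11). Neighbouring genes and their strands were taken from the same RefSeq table. Regions were assigned by cluster midpoint, and ranks are over all clusters or listed genes (Python 3.11.15, pandas 2.3.3, numpy 2.4.6, scipy 1.17.1). Bases shared by cluster and region are the deposited widths. Joining, position and rank functions were tested on simulated data. No p-value was computed. The members and lists were chosen with earlier results of these data known. Named were all 5 members, listed family and partner genes, and the 2 genes on either side of the leading member by height and by fold; proteolipids, markers and neighbours were added for context.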

Additional observations from a re-analysis of the deposited data

How the results depend on the processing

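Of 15 alternative settings, 10 left the value within 1.5 times, including joining clusters at up to 50 bases, containment or overlap as the rule for the region, and the shortest 3' UTR interval. Counting only clusters taller than the median height left 2 of the 6 tetraspanin clusters, those of Tspan5 and Tspan18, and 6.45% of the family (beside 1.87% of all protein-coding genes). With folds above the median, 9.68% of the family remained listed (beside 2.34%). Among genes named Tspan alone, 25% were listed (exact 95% interval 8.66 to 49.1, beside 3.47%). The members were taken from the list by that name, so nothing is read from these differences. The median share of listed genes below a member was 24.2% by height and 41.4% by fold. No paired analysis was possible because no column holds the values of a single library. Library depth, and whether a height is a raw count of tags, are unknown, so counting error of a height could not be given.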
